A study of Mus musculus with 15 samples.

Results

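The genes described here encode the proteins that carry long-chain fatty acids into the heart muscle cell and shorten them by beta-oxidation. They were chosen by name, as 34 genes of 6 steps of the pathway, and all 34 were found among the 55401 genes of each library. The steps are uptake (5 genes), activation to acyl-CoA (2), the carnitine shuttle (6), chain shortening in the mitochondrion (14), the peroxisomal branch (4) and electron transfer to the respiratory chain (3). RNA came from ventricles of male C57BL6 mice aged 12 weeks. Isoproterenol, a β-adrenergic agonist that drives the heart to beat faster and harder, was injected under the skin at 50 mg/kg/day for 4 days (4 hearts), 8 days (3 hearts) or 11 days (4 hearts), and 4 hearts came from mice given saline. The labels do not say for how many days each saline mouse was dosed, so that the saline hearts serve all 3 times, and 1 replicate of the 8-day group had been excluded by the authors for quality. Hearts are named by group and letter, such as 4-day A, and lists of values follow the letters from A on.

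The adult heart draws most of its energy from fatty acids. Lipoprotein lipase frees them from circulating triglyceride at the capillary wall, CD36 and fatty acid transport proteins take them into the cell, and the heart fatty acid-binding protein carries them through the cytosol. Acyl-CoA synthetases activate them, and the carnitine shuttle (Cpt1 on the outer and Cpt2 on the inner mitochondrial membrane) brings the acyl chain into the matrix, a step that malonyl-CoA inhibits. Each turn of the oxidation spiral then uses a dehydrogenase, a hydratase, a second dehydrogenase and a thiolase, and extra isomerases and a reductase deal with double bonds. Electrons pass through the electron transfer flavoprotein and its dehydrogenase to ubiquinone, and peroxisomes shorten very long and branched chains. Many of these genes are targets of the PPAR and ERR nuclear receptors in muscle and liver. Since the tissue was taken whole, fewer cells of a type and less RNA per cell cannot be told apart.

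The libraries held 25404162 to 117777005 expected counts, of which 47.5 to 58.4% fell on the mitochondrial genome. Library 8-day A stood apart in CT010467.1 and Lars2, at 15.8% of its counts, where no other library exceeded 0.0916%. The 34 genes made up 1.19 to 1.51% of the non-mitochondrial counts after 4 days, 0.994 to 1.40% after 8 days and 1.47 to 1.60% after 11 days, against 1.85 to 2.09% after saline. The ranges of all 3 isoproterenol groups lay below that of the saline hearts. The 0.994% is that of 8-day A, whose excess of CT010467.1 and Lars2 is part of these non-mitochondrial counts and lowers its share. Hearts 8-day B and 8-day C stood at 1.398 and 1.32%. The summed level of 16 cardiomyocyte markers overlapped between the groups, at 70750 to 79110, 73870 to 79180 and 76280 to 83350 CPM (counts relative to library size, scaled by TMM) after 4, 8 and 11 days and 71490 to 79510 CPM after saline. As a percentage of that sum the 34 genes stood at 7.24 to 8.97%, 7.61 to 9.3% and 9.03 to 9.68%, against 11.8 to 13.6% after saline. In this measure 8-day A, at 9.3%, was the highest of the 8-day hearts. Single cardiomyocyte markers moved both ways after 4 days, 3 of the 16 lower and 3 higher, with log2 fold changes from -0.687 to 0.538. After 8 and 11 days 0 were called. The sum of 10 fibroblast markers was 1647 to 5151 CPM after 4 days, 1133 to 1827 CPM after 8 days and 1114 to 1762 CPM after 11 days, above the 784.6 to 969.2 CPM after saline, and that of 10 macrophage markers was 217 to 360.3, 161 to 224 and 164 to 204 CPM, against 109 to 178 CPM. After 4 days 9 of the 10 fibroblast markers were higher and 1 lower, and 9 of the 10 macrophage markers were higher, and the part of these cells in the results was not tested. Markers of liver, an organ that expresses many of the same enzymes, summed to at most 0.487 CPM in any heart and Fabp1 was at 0 in every library. The 10 adipocyte markers summed to 6.59 to 8.98, 7.91 to 15.3 and 6.75 to 8.92 CPM after 4, 8 and 11 days, against 5.66 to 7.54 CPM after saline, so that the 8-day range lay above the saline range, and 4 of them (Retn, Lep, Ucp1 and Elovl3) were under 0.1 CPM throughout. The 5 erythroid markers summed to 38.6 to 207.6, 87.3 to 197 and 63.8 to 200.5 CPM, with medians of 76.2, 106 and 75.4 CPM, against 106 to 574.6 CPM with a median of 284 CPM after saline, and 2, 0 and 2 of them were lower. The 10 endothelial markers summed to 407 to 453, 455 to 511.5 and 405 to 494 CPM, against 399 to 516 CPM after saline, and none was called at any time. The part of these cells in the results was not tested either.

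All 34 genes passed the filter of at least 10 counts in sum and were tested against saline with edgeR's quasi-likelihood test, adjusted over 26862 genes, at a threshold of 0.05. After 4 days 29 of the 34 genes were lower than in the saline hearts and none was higher, where 3.4% of all tested genes were lower and 6.05% higher. After 8 days 19 were lower and none higher (1.2% and 1.07% of all genes), and after 11 days 21 were lower and 1, Acsl3, was higher (1.95% and 1.8%). The median log2 fold change of the 34 genes was -0.587, -0.524 and -0.408 at the 3 times, against 0.0061, -0.0126 and -0.0101 over all tested genes. Every isoproterenol heart lay below every saline heart for 27, 26 and 20 of the genes (5.65%, 5.97% and 4.77% of all genes), and above for 0, 0 and 1 (8%, 6.88% and 5.85%). The 3 comparisons share the saline hearts. Of the 34 genes 16 were lower at all 3 times, namely Cd36 and Fabp3, the carnitine shuttle genes Cpt1a, Cpt2, Crat and Mlycd, the chain shortening genes Hadha, Hadhb, Hadh, Acaa2, Decr1 and Ech1, the peroxisomal Abcd3, and Etfa, Etfb and Etfdh.

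**Figure D1:**
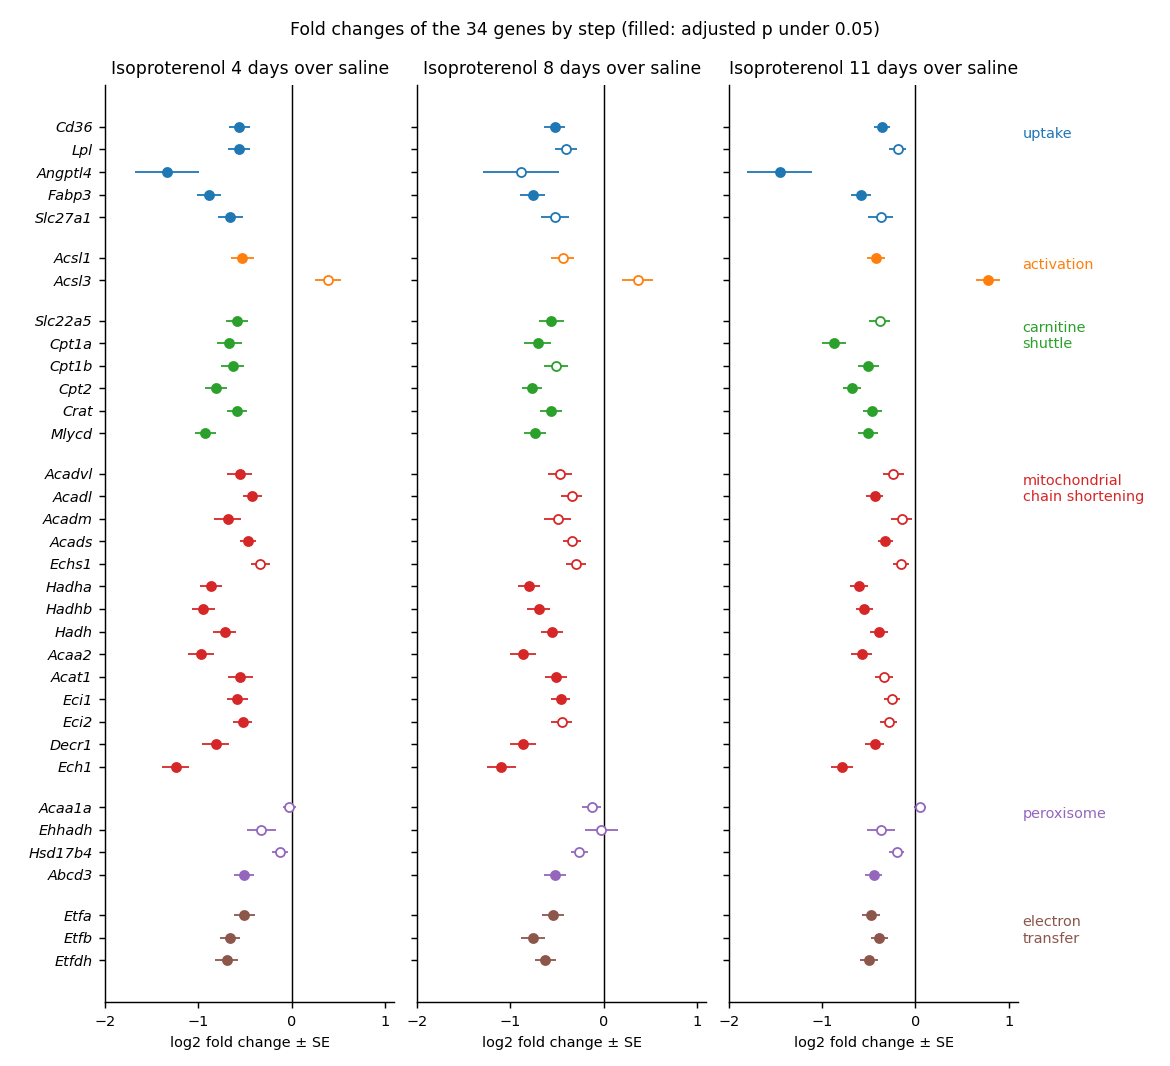
Log2 fold change (x axis) of each of the 34 genes, grouped by step, for 4, 8 and 11 days of isoproterenol over saline; bars are 1 standard error and filled points have an adjusted p under 0.05 from edgeR. Filled points to the left of 0 number 29, 19 and 21, the only filled point to the right is Acsl3 at 11 days, and 3 of the 4 peroxisomal genes have no filled point.

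By step, all 6 carnitine shuttle genes were lower after 4 days and 5 of 6 after 8 and after 11 days, and all 3 electron transfer genes were lower at each time. Of the 14 mitochondrial chain shortening genes 13, 8 and 8 were lower, and of the 5 uptake genes 5, 2 and 3. Activation had 1 of 2 lower after 4 days, 0 after 8 days, and 1 lower and 1 higher after 11 days. The peroxisomal branch had 1 of 4 lower at each time, Abcd3. The 4 genes that passed the test at no time were Echs1, Acaa1a, Ehhadh and Hsd17b4. The lowest of the 3 fold changes was the 4-day one for 23 genes, the 8-day one for 7 and the 11-day one for 4. This order was not counted over all genes. The calls at 4 days were kept by 23 of the 29 genes whichever 1 library was left out, and those at 8 and 11 days by 7 of 19 and 7 of 22. The count at 8 days became 7, 9, 11 and 12 without 8-day C, 8-day B, saline A and saline D, and the count at 11 days, Acsl3 included, became 7, 8, 12 and 14 without 11-day B, 11-day C, saline A and saline D. The shares of all genes in those fits are not given here. The counts thus cannot separate a loss in the pathway from a loss over all genes. Scaled by library size alone the numbers called in either direction were 19, 10 and 11, where 9.43%, 0.622% and 1.54% of all genes were higher and 1.09%, 1.04% and 0.819% lower. In FPKM with limma they were 12, 0 and 1, where 4.76%, 0.0147% and 0.454% of all genes were higher and 0.665%, 0.0343% and 0.19% lower.

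Per length, the saline hearts held most of Fabp3 and Lpl, at 1241 ± 163 and 659 ± 73.7 FPKM (fragments per kilobase of transcript, scaled to a common depth, mean ± SD, n = 4), followed by Hadhb at 407 ± 42.6, Acadm at 383 ± 75.0, Cd36 at 373 ± 35.4, Ech1 at 335 ± 49.9 and Hadha at 291 ± 41.7 FPKM. The saline ranges of Hadhb, Acadm, Cd36, Ech1 and Hadha overlapped from each to the next. In all, 16 of the 34 genes were above 100 FPKM in the saline hearts. The lowest were Slc22a5 at 4.22 ± 0.52, Ehhadh at 1.83 ± 0.40, Acsl3 at 1.68 ± 0.64 and Angptl4 at 0.505 ± 0.297 FPKM. Among the 33 neighbouring pairs in this order 11 had ranges that did not overlap.

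**Figure D2:**
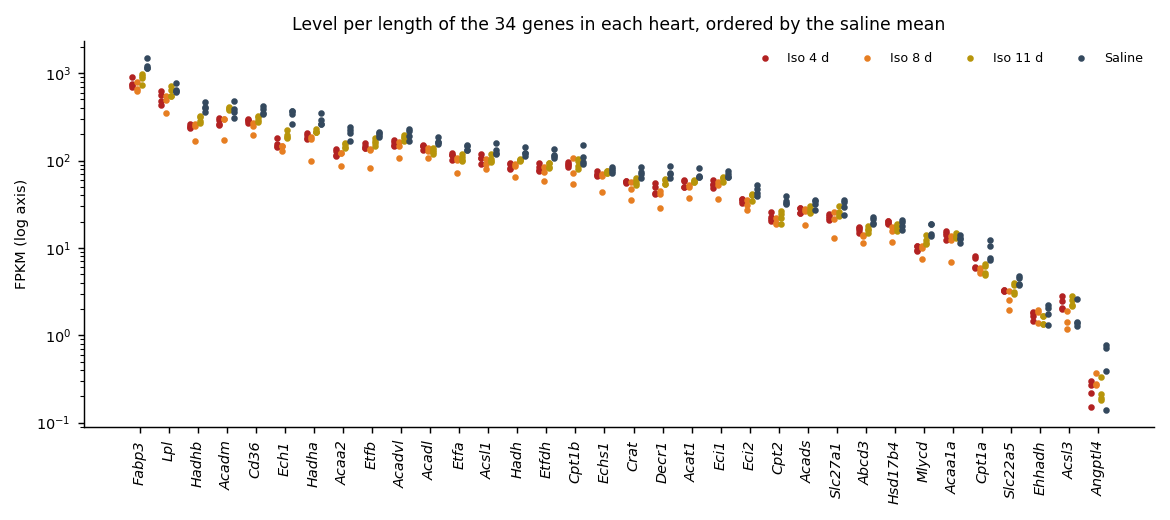
FPKM of each of the 34 genes in every heart (log axis), ordered by the saline mean, with 4, 8 and 11 days of isoproterenol left of saline. The order runs from Fabp3 (1241 FPKM in saline) to Angptl4 (0.505 FPKM); 8-day A, with 15.8% of its counts on CT010467.1 and Lars2, was the lowest 8-day heart for 33 of the genes in this unit.

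All 5 genes of fatty acid uptake were lower after 4 days, 2 after 8 days and 3 after 11 days. Fabp3, the cytosolic carrier of fatty acids in heart muscle (chromosome 4, 130308595 to 130315463, plus strand, GRCm38), had 429, 578, 382 and 436 CPM after 4 days, 588, 445 and 471 CPM after 8 days and 571, 613, 480.0 and 603 CPM after 11 days, against 972, 771, 729 and 909.8 CPM after saline. No isoproterenol heart reached the lowest saline heart. Its log2 fold changes were -0.89, -0.76 and -0.59 (SE 0.13, 0.13 and 0.11, adjusted p = 0.00119, 0.00809 and 0.00841). Angptl4, a secreted inhibitor of lipoprotein lipase (chromosome 17, 33773750 to 33781830, minus strand), had 0.574, 0.257, 0.399 and 0.425 CPM after 4 days, 0.823, 0.592 and 0.351 CPM after 8 days and 0.262, 0.386, 0.305 and 0.588 CPM after 11 days, against 1.55, 0.412, 1.23 and 1.06 CPM after saline. These values rest on 10 to 146 counts per library, and saline B lay among the isoproterenol hearts, far below the other saline hearts. Its log2 fold changes were -1.34, -0.89 and -1.46 (SE 0.34, 0.40 and 0.35, adjusted p = 0.0245, 0.373 and 0.0337). Lpl, lipoprotein lipase itself, had 1215, 1665, 1521 and 1227 CPM after 4 days, 1726, 1628 and 1397 CPM after 8 days and 1950.0, 1700.0, 1688 and 2014 CPM after 11 days, against 1916, 2200.0, 1982 and 2243 CPM after saline. The 4-day and 8-day hearts were all below the saline hearts, while the 11-day hearts reached into the saline range. The log2 fold changes of Lpl were -0.56, -0.40 and -0.19 (SE 0.12, 0.12 and 0.09, adjusted p = 0.00771, 0.109 and 0.303).

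Slc27a1, a fatty acid transport protein of muscle and fat, had 46.5, 46.3, 45.9 and 42.8 CPM after 4 days, 45.3, 51.5 and 54.1 CPM after 8 days and 52.7, 49.7, 56.5 and 63.6 CPM after 11 days, against 75.98, 49.9, 81.3 and 79.6 CPM after saline. Only saline B overlapped the isoproterenol hearts, at 8 and at 11 days. The log2 fold changes of Slc27a1 were -0.66, -0.52 and -0.37 (SE 0.13, 0.15 and 0.13, adjusted p = 0.00596, 0.0997 and 0.154). Cd36, the membrane receptor that takes up long-chain fatty acids, had 398 to 542 CPM after 4 days, 451 to 533 CPM after 8 days and 517 to 576 CPM after 11 days, against 631 to 779.5 CPM after saline, with no overlap at any time. Cd36 had log2 fold changes of -0.56, -0.53 and -0.36 (SE 0.11, 0.11 and 0.09, adjusted p = 0.00672, 0.0256 and 0.0315). Angptl4 lost its 4-day call without saline A, saline C, 4-day C or 4-day D (adjusted p up to 0.095 from edgeR) and its 11-day call on leaving out any 1 of 6 libraries (up to 0.106). Cd36 lost its 8-day call without saline A, saline D, 8-day B or 8-day C (up to 0.139) and its 11-day call on leaving out any 1 of 6 libraries (up to 0.129), and Fabp3 its 8-day call without 8-day B or 8-day C (up to 0.0535).

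Of the acyl-CoA synthetases of the activation step, Acsl1 was lower after 4 and 11 days and Acsl3 was higher after 11 days. Acsl1, the main long-chain acyl-CoA synthetase of the heart (chromosome 8, 46471037 to 46536051, plus strand), had 274, 397, 305 and 335 CPM after 4 days, 392, 342 and 321 CPM after 8 days and 363, 347, 328 and 384 CPM after 11 days, against 547, 402, 459 and 494 CPM after saline. The 4-day, 8-day and 11-day hearts all lay below the saline hearts. Its log2 fold changes were -0.53, -0.44 and -0.43 (SE 0.12, 0.12 and 0.09, adjusted p = 0.0153, 0.083 and 0.0238). Acsl3, a synthetase known from the endoplasmic reticulum and lipid droplets (chromosome 1, 78657825 to 78707743, plus strand), had 3.37, 3.96, 3.74 and 3.63 CPM after 4 days, 3.84, 3.68 and 3.35 CPM after 8 days and 4.14, 5.397, 5.04 and 4.75 CPM after 11 days, against 2.61, 2.35, 2.796 and 3.55 CPM after saline. At 11 days every heart was above every saline heart, and at 4 and 8 days saline D lay among the isoproterenol hearts. The log2 fold changes of Acsl3 were 0.39, 0.37 and 0.78 (SE 0.14, 0.16 and 0.13, adjusted p = 0.099, 0.357 and 0.00547). Acsl3 thus passed the threshold after 11 days alone. Its value at 4 days passed when scaled by library size alone (0.60, adjusted p = 0.0166), in a fit of all 15 samples (0.39, adjusted p = 0.0435) and without saline D (0.49, adjusted p = 0.0439, all from edgeR).

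The call of Acsl3 at 11 days was lost when gene lengths entered the values, while its log2 fold change stayed positive. It was 0.52 with effective lengths as offsets (adjusted p = 0.32 from edgeR) and 0.38 in FPKM with limma (adjusted p = 0.291), and the 8-day value turned to -0.06 and -0.09 in these fits. Its most abundant transcript, Acsl3-205, took 26.5 to 72.2%, 23.7 to 87.3% and 51 to 70.3% of its counts after 4, 8 and 11 days, against 36 to 76.3% after saline. Utp14b, on the same strand, shares 244 exon bases with Acsl3 and held 92.5% as many counts. Utp14b had 3.37 to 4.11, 2.93 to 3.60 and 3.58 to 4.12 CPM after 4, 8 and 11 days, against 2.57 to 3.15 CPM after saline, with log2 fold changes of 0.37, 0.16 and 0.39 (adjusted p = 0.0772, 0.721 and 0.0705 from edgeR). The part of this neighbour in the values of Acsl3 was not tested. Acsl1 lost its 4-day call without saline A or 4-day A (adjusted p up to 0.0581 from edgeR) and its 11-day call on leaving out any 1 of saline A, saline D, 11-day A, 11-day B and 11-day C (up to 0.0919).

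The carnitine shuttle was lower at nearly every gene and time. Cpt2, the acyltransferase of the inner membrane (chromosome 4, 107903981 to 107923610, minus strand), had 36.9, 53.1, 39.7 and 43.1 CPM after 4 days, 48.98, 42.6 and 42.8 CPM after 8 days and 51.8, 47.6, 40.6 and 50.8 CPM after 11 days, against 80.5, 66.3, 73.3 and 84.04 CPM after saline. The lowest saline heart was above the highest isoproterenol heart. Its log2 fold changes were -0.81, -0.77 and -0.68 (SE 0.12, 0.11 and 0.09, adjusted p = 0.000868, 0.00215 and 0.00149), and no omission of 1 library ended a call. Cpt1a, the liver-type enzyme of the outer membrane (chromosome 19, 3322334 to 3385733, plus strand), had 26.98, 21.8, 23.8 and 20.8 CPM after 4 days, 25.3, 23.1 and 20.3 CPM after 8 days and 18.3, 18.5, 22.01 and 22.6 CPM after 11 days, against 41.2, 27.9, 44.4 and 34.99 CPM after saline. Its lowest isoproterenol values were those of 11-day A and 11-day B. Cpt1a had log2 fold changes of -0.67, -0.70 and -0.88 (SE 0.13, 0.15 and 0.13, adjusted p = 0.00618, 0.0205 and 0.00201). Mlycd, malonyl-CoA decarboxylase, which removes the inhibitor of Cpt1, had 16.5, 20.7, 17.8 and 16.4 CPM after 4 days, 20.9, 21.5 and 19.2 CPM after 8 days and 24.4, 23.1, 21.6 and 26.9 CPM after 11 days, against 37.4, 27.3, 37.4 and 33.6 CPM after saline. The highest isoproterenol heart, 11-day D, came close to saline B, the lowest saline heart. The log2 fold changes of Mlycd were -0.93, -0.74 and -0.51 (SE 0.11, 0.12 and 0.10, adjusted p = 0.000396, 0.00489 and 0.0155).

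Cpt1b, the muscle-type counterpart of Cpt1a, had 159.7 to 198 CPM after 4 days, 178 to 203 CPM after 8 days and 166 to 209 CPM after 11 days, against 207 to 305 CPM after saline. Its hearts overlapped the saline range at 11 days, and its log2 fold changes were -0.63, -0.51 and -0.51 (SE 0.12, 0.13 and 0.11, adjusted p = 0.0044, 0.0506 and 0.0249). Crat, which moves short acyl groups between CoA and carnitine, had 125 to 149.6 CPM after 4 days, 133 to 146 CPM after 8 days and 137 to 158 CPM after 11 days, against 162 to 224 CPM after saline, without overlap. Crat had log2 fold changes of -0.59, -0.57 and -0.46 (SE 0.11, 0.12 and 0.10, adjusted p = 0.00423, 0.0217 and 0.021). Slc22a5, the carnitine importer of the cell membrane, had 7.07 to 8.603 CPM after 4 days, 7.34 to 7.99 CPM after 8 days and 7.96 to 9.84 CPM after 11 days, against 8.68 to 12.7 CPM after saline, with overlap at 11 days. Slc22a5 had log2 fold changes of -0.59, -0.56 and -0.39 (SE 0.12, 0.13 and 0.12, adjusted p = 0.00702, 0.0442 and 0.0927). The 4-day calls of all 6 genes were kept whichever 1 library was left out. Of the 8-day calls, that of Cpt1a was lost without saline A, 8-day B or 8-day C (adjusted p up to 0.12 from edgeR), that of Crat without saline A, saline D, 8-day B or 8-day C (up to 0.11) and that of Slc22a5 on leaving out any 1 library but saline B (up to 0.194). Of the 11-day calls, that of Mlycd was lost without saline A, 11-day B or 11-day C (up to 0.0623), that of Cpt1b without saline A, saline C, 11-day B or 11-day C (up to 0.0964) and that of Crat on leaving out any 1 of 5 libraries (up to 0.0833).

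In the mitochondrial chain shortening step 13 of 14 genes were lower after 4 days, 8 after 8 days and 8 after 11 days, and the largest fall of the step at each time was that of Ech1, an isomerase that moves double bonds in unsaturated chains (chromosome 7, 28825217 to 28832247, plus strand). Ech1 had 132, 183, 130.1 and 147 CPM after 4 days, 187, 169 and 139 CPM after 8 days and 204, 203, 194 and 218 CPM after 11 days, against 373, 255, 372 and 408 CPM after saline. Even saline B, the lowest saline heart, was above 11-day D, the highest isoproterenol heart. Ech1 fell by 57.8%, 53.2% and 42.1%, with log2 fold changes of -1.24, -1.10 and -0.79 (SE 0.15, 0.15 and 0.12, adjusted p = 0.000357, 0.00222 and 0.0024). Decr1, the dienoyl-CoA reductase that works beside it, had 103, 148, 97.5 and 128 CPM after 4 days, 109, 134 and 104 CPM after 8 days and 164, 148, 149 and 161 CPM after 11 days, against 239, 169, 191 and 241 CPM after saline. No isoproterenol heart reached saline B. The log2 fold changes of Decr1 were -0.82, -0.86 and -0.44 (SE 0.15, 0.14 and 0.11, adjusted p = 0.00318, 0.00431 and 0.0356). Eci1, an enoyl-CoA isomerase, had 39.9, 55.3, 41.8 and 46.5 CPM after 4 days, 48.6, 53.3 and 48.8 CPM after 8 days and 60.04, 62.1, 53.2 and 57.03 CPM after 11 days, against 72.9, 60.4, 65.4 and 76.7 CPM after saline. Its 11-day hearts overlapped the saline range through saline B. Eci1 had log2 fold changes of -0.58, -0.46 and -0.25 (SE 0.11, 0.10 and 0.09, adjusted p = 0.00493, 0.0299 and 0.132). Eci2, a second isomerase found in mitochondria and peroxisomes, had 34.7 to 44.4 CPM after 4 days, 38.2 to 45.3 CPM after 8 days and 42.1 to 49.7 CPM after 11 days, against 46.4 to 61.4 CPM after saline, and log2 fold changes of -0.53, -0.45 and -0.29 (SE 0.10, 0.11 and 0.09, adjusted p = 0.00596, 0.0559 and 0.111).

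The trifunctional protein, which carries the last 3 reactions for long chains, is encoded by Hadha and Hadhb, and these genes lie head to head on chromosome 5. Hadha runs from 30155162 down to 30118304 on the minus strand and Hadhb from 30155248 up to 30184593 on the plus strand, with 85 bases between the gene models. The window of 300 bases that RefSeq gives for the start of Hadhb (GRCm38, chr5:30155003-30155302, plus strand) is shown since 1 stretch of DNA lies before both genes. Capitals mark the 85 bases between the models.
Hadhb: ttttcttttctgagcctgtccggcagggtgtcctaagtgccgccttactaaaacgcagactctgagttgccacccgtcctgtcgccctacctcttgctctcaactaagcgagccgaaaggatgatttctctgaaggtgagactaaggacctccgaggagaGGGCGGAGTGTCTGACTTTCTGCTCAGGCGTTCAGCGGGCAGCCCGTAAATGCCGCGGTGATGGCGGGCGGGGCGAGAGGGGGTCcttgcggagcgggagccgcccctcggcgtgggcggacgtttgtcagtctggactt

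Hadhb, the beta subunit with the thiolase, had 274, 389, 293 and 337 CPM after 4 days, 429.6, 381 and 351 CPM after 8 days and 453, 433, 409.9 and 419 CPM after 11 days, against 682, 518, 622 and 676 CPM after saline. The saline hearts were all higher than the isoproterenol hearts. Its log2 fold changes were -0.95, -0.70 and -0.55 (SE 0.12, 0.12 and 0.09, adjusted p = 0.00063, 0.0077 and 0.00465). Hadha, the alpha subunit with the hydratase and the dehydrogenase, had 308 to 388 CPM after 4 days, 351 to 372 CPM after 8 days and 393 to 421 CPM after 11 days, against 511 to 695 CPM after saline, again without overlap. Hadha had log2 fold changes of -0.86, -0.80 and -0.60 (SE 0.12, 0.12 and 0.10, adjusted p = 0.000672, 0.00317 and 0.00363). Within a library the log2 ratio of Hadha to Hadhb was 0.083 ± 0.071, -0.108 ± 0.162 and -0.059 ± 0.048 after 4, 8 and 11 days, against -0.01 ± 0.05 after saline (SD, n = 4, 3, 4 and 4). None of these differences passed the exact two-sided permutation test (p = 0.0857, 0.4 and 0.171, adjusted over 15 tests 0.184, 0.462 and 0.257). With 3 against 4 hearts this test can give no p under 0.0571, and with 4 against 4 none under 0.0286. After adjustment over 15 tests 0.0286 passes only if most of the tests reach it, so that no unchanged ratio can be read here.

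Acaa2, the general thiolase of the matrix, had 134, 179.9, 127 and 159.6 CPM after 4 days, 162, 177 and 148 CPM after 8 days and 212, 196, 187 and 201 CPM after 11 days, against 324, 219, 295 and 344 CPM after saline. Saline B was the only saline heart near the 11-day hearts. Its log2 fold changes were -0.97, -0.87 and -0.58 (SE 0.14, 0.14 and 0.12, adjusted p = 0.00106, 0.00487 and 0.014). Hadh, the dehydrogenase for medium and short chains, had 113, 151, 114 and 136 CPM after 4 days, 148, 152 and 136 CPM after 8 days and 165, 167, 159 and 161 CPM after 11 days, against 236, 176, 195 and 241 CPM after saline. The 11-day hearts lay within a few CPM of each other and below saline B. Hadh had log2 fold changes of -0.72, -0.55 and -0.39 (SE 0.12, 0.12 and 0.10, adjusted p = 0.00256, 0.0244 and 0.0378). Acat1, the acetoacetyl-CoA thiolase that also serves ketone bodies, had 129 to 186 CPM after 4 days, 144 to 170.3 CPM after 8 days and 173 to 184 CPM after 11 days, against 189.7 to 253 CPM after saline, without overlap, and log2 fold changes of -0.55, -0.51 and -0.34 (SE 0.13, 0.12 and 0.10, adjusted p = 0.0176, 0.0406 and 0.0716). Echs1, the short-chain hydratase, had 85.4 to 109 CPM after 4 days, 92.5 to 106 CPM after 8 days and 106 to 110.3 CPM after 11 days, against 102 to 134 CPM after saline, with overlap at each time. Echs1 did not pass the test, with log2 fold changes of -0.33, -0.30 and -0.16 (SE 0.10, 0.11 and 0.08, adjusted p = 0.0632, 0.216 and 0.369).

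The acyl-CoA dehydrogenases open each turn of the spiral, each for its own chain lengths. Acadm, for medium chains, had 262, 372, 268 and 321 CPM after 4 days, 315, 403 and 338 CPM after 8 days and 463, 457, 429 and 442 CPM after 11 days, against 588, 400.4, 420.4 and 565 CPM after saline. The 4-day hearts all lay below the saline hearts, while 1 8-day heart and all 11-day hearts were within the saline range. The log2 fold changes of Acadm were -0.69, -0.49 and -0.15 (SE 0.14, 0.14 and 0.12, adjusted p = 0.00896, 0.111 and 0.583). Acadvl, for very long chains, had 256, 329, 243 and 292 CPM after 4 days, 295, 313 and 294 CPM after 8 days and 365, 356, 324 and 367 CPM after 11 days, against 453, 313, 425 and 463 CPM after saline. Saline B, at 313 CPM, overlapped the isoproterenol hearts at each time. Acadvl had log2 fold changes of -0.56, -0.47 and -0.24 (SE 0.13, 0.13 and 0.11, adjusted p = 0.0163, 0.084 and 0.287). Acadl, for long chains, had 210.1 to 252 CPM after 4 days, 219 to 260.2 CPM after 8 days and 209.5 to 233 CPM after 11 days, against 262 to 341 CPM after saline, and Acads, for short chains, had 35.97 to 44.5 CPM after 4 days, 42.5 to 46.3 CPM after 8 days and 41.02 to 49.5 CPM after 11 days, against 50.1 to 58.8 CPM after saline. Neither overlapped the saline hearts at any time. Acadl had log2 fold changes of -0.42, -0.34 and -0.44 (SE 0.10, 0.11 and 0.09, adjusted p = 0.018, 0.165 and 0.0144), and those of Acads were -0.47, -0.34 and -0.33 (SE 0.09, 0.09 and 0.08, adjusted p = 0.00451, 0.0862 and 0.0379).

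Of the 13 chain shortening calls at 4 days, those of Acadvl, Acadl and Acat1 were lost when 1 of 4 or 5 libraries was left out (adjusted p up to 0.0569, 0.0618 and 0.063 from edgeR), 4-day A and 4-day C among them for each. Of the 8 calls at 8 days, Hadha, Acaa2, Decr1 and Ech1 kept theirs, Hadhb lost its call without 8-day C (0.0541), and Hadh, Acat1 and Eci1 lost theirs on leaving out any 1 of saline A, saline D, 8-day A, 8-day B and 8-day C (up to 0.203). Of the 8 calls at 11 days, Hadha, Hadhb and Ech1 kept theirs, Acadl and Acaa2 lost theirs without 11-day B or 11-day C (up to 0.0663), and Hadh, Decr1 and Acads lost theirs on leaving out any 1 of 6 libraries (up to 0.149). Dvl2 lies on the opposite strand over 42.9% of the exon bases of Acadvl but held 1.34% as many counts.

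The peroxisomal branch differed by gene. Abcd3, a transporter of the peroxisomal membrane (chromosome 3, 121758774 to 121815302, minus strand), had 42.2, 51.3, 39.3 and 49.3 CPM after 4 days, 49.6, 46.7 and 39.8 CPM after 8 days and 46.2, 45.3, 49.3 and 50.3 CPM after 11 days, against 69.97, 54.4, 65.2 and 70.1 CPM after saline. All isoproterenol hearts were below saline B. Its log2 fold changes were -0.51, -0.52 and -0.45 (SE 0.11, 0.11 and 0.09, adjusted p = 0.0093, 0.0281 and 0.0112). Ehhadh, the peroxisomal bifunctional enzyme (chromosome 16, 21761287 to 21787807, minus strand), had 4.098, 4.91, 4.42 and 3.73 CPM after 4 days, 5.46, 5.797 and 4.72 CPM after 8 days and 3.84, 3.77, 4.65 and 4.42 CPM after 11 days, against 6.30, 3.56, 5.65 and 5.95 CPM after saline. Saline B was the lowest of all 15 hearts and the groups overlapped. Ehhadh did not pass the test, with log2 fold changes of -0.32, -0.02 and -0.37 (SE 0.16, 0.18 and 0.15, adjusted p = 0.258, 0.98 and 0.222). Its 8-day value changed sign, to 0.04, when scaled by the cardiomyocyte markers. Hsd17b4, the multifunctional enzyme for branched chains, had 39.7 to 45.9 CPM after 4 days, 38.98 to 41.5 CPM after 8 days and 37.6 to 45.6 CPM after 11 days, against 43.2 to 51.8 CPM after saline, and Acaa1a, the peroxisomal thiolase, had 21.1 to 22.2 CPM after 4 days, 17.8 to 22.2 CPM after 8 days and 22.3 to 24.2 CPM after 11 days, against 21.4 to 23.4 CPM after saline. Hsd17b4 lay below the saline range at 8 days and overlapped it at 4 and 11 days, and Acaa1a overlapped at each time. Neither passed the test at any time, with log2 fold changes of -0.12, -0.26 and -0.20 for Hsd17b4 (adjusted p = 0.439, 0.214 and 0.211 from edgeR) and of -0.02, -0.13 and 0.05 for Acaa1a (0.906, 0.665 and 0.794). The 4-day values of Hsd17b4 and Acaa1a turned to 0.08 and 0.18 when scaled by library size alone. Acaa1a shares 290 exon bases with Myd88 on the opposite strand, which held 16.6% as many counts, and the strand setting of the counting is not given in the sources used here. Abcd3 lost its 8-day call without saline A, saline D, 8-day B or 8-day C (up to 0.163) and its 11-day call without 11-day B (0.0556).

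Electron transfer was lower for all 3 genes at all 3 times. Etfdh, the dehydrogenase that hands electrons to ubiquinone (chromosome 3, 79603788 to 79629500, minus strand), had 146, 201, 142 and 173 CPM after 4 days, 179.7, 177 and 169.6 CPM after 8 days and 206, 188, 179 and 197 CPM after 11 days, against 300.2, 226, 252 and 300.4 CPM after saline. The isoproterenol hearts were all below saline B. Its log2 fold changes were -0.70, -0.62 and -0.49 (SE 0.13, 0.11 and 0.10, adjusted p = 0.00353, 0.00925 and 0.0116). Etfb, the beta subunit of the electron transfer flavoprotein (chromosome 7, 43444083 to 43457800, plus strand), had 91.5, 112, 84.9 and 92.7 CPM after 4 days, 77.5, 106 and 86.6 CPM after 8 days and 113, 123, 105 and 124 CPM after 11 days, against 155, 131, 145 and 175 CPM after saline. The lowest value was that of 8-day A, and none reached the saline range. Etfb had log2 fold changes of -0.67, -0.76 and -0.39 (SE 0.11, 0.12 and 0.09, adjusted p = 0.0018, 0.00533 and 0.0327). Etfa, the alpha subunit, had 113 to 146 CPM after 4 days, 117 to 132 CPM after 8 days and 122 to 136 CPM after 11 days, against 155 to 219 CPM after saline, without overlap, and log2 fold changes of -0.51, -0.54 and -0.48 (SE 0.12, 0.12 and 0.10, adjusted p = 0.0147, 0.0299 and 0.0187). Etfa lost its call at 4 days without 4-day A or 4-day D (adjusted p up to 0.0544 from edgeR), at 8 days on leaving out any 1 of the 8-day hearts (up to 0.144) and at 11 days without 11-day A, 11-day B or 11-day C (up to 0.0752). Etfb lost its 11-day call on leaving out any 1 library but saline B (up to 0.113), and Etfdh lost its 8-day call without 8-day C (0.0598) and its 11-day call without 11-day B or 11-day C (up to 0.0527).

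**Figure D3:**
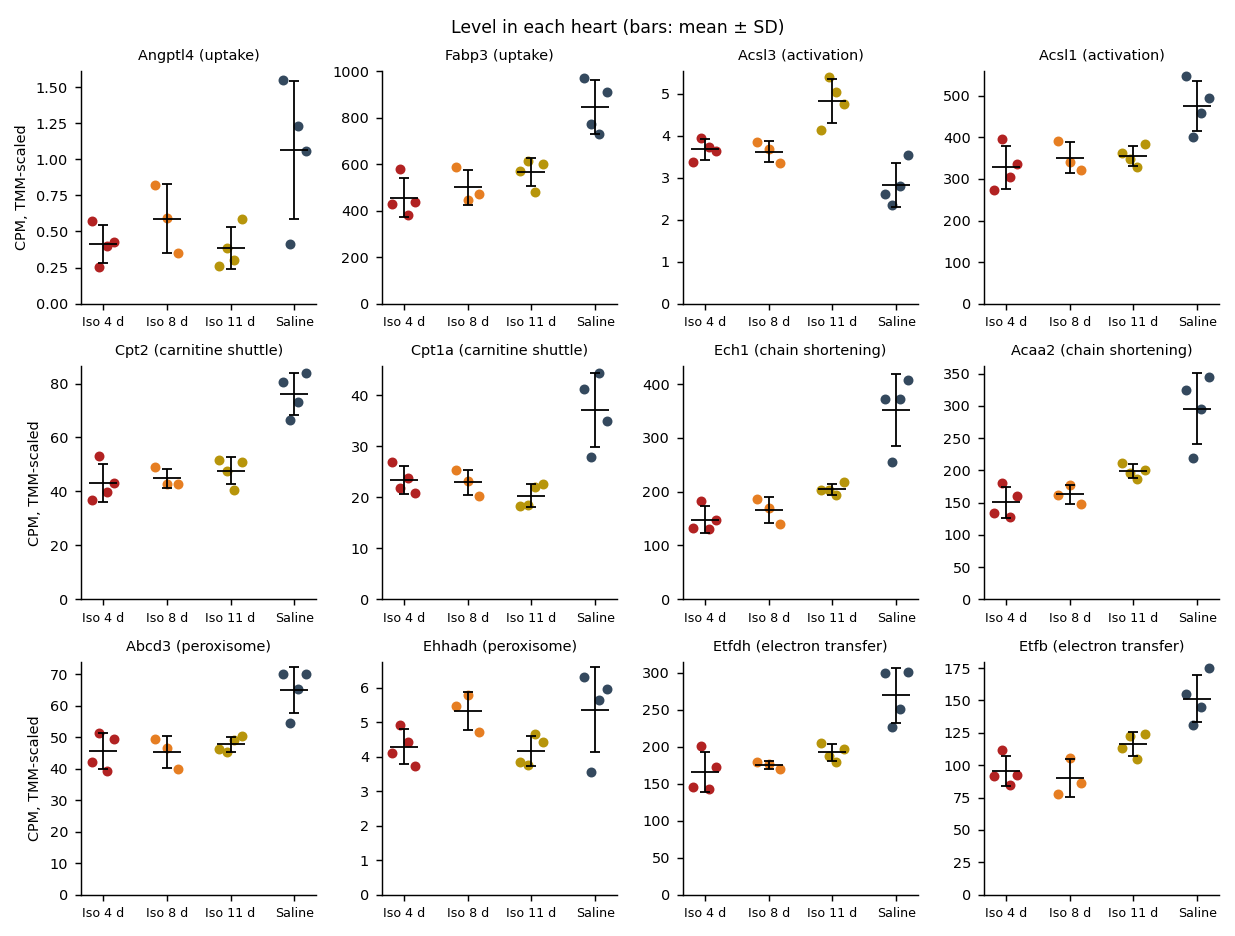
CPM (y axis, from 0) of the 2 genes of each step with the largest mean size of change, 1 point per heart, for 4, 8 and 11 days of isoproterenol (Iso) and saline; bars are the mean ± SD. For Fabp3, Acsl1, Cpt2, Cpt1a, Ech1, Acaa2, Abcd3, Etfdh and Etfb every isoproterenol heart is below every saline heart, for Angptl4 and Ehhadh the groups overlap, and Acsl3 is highest in the 11-day hearts.

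Hearts of the same group differed in their mean level over the pathway. Relative to the saline mean, the mean log2 level of the 34 genes was -0.698, -0.427, -0.716 and -0.61 in the 4-day hearts, -0.466, -0.464 and -0.618 in the 8-day hearts and -0.378, -0.403, -0.469 and -0.313 in the 11-day hearts, against 0.129, -0.283, 0.011 and 0.143 in the saline hearts. Saline B was the lowest saline heart for 31 of the 34 genes, and 4-day B was the highest 4-day heart for 29 of 34. Heart 4-day B also had the lowest fibroblast and macrophage marker sums of the 4-day hearts, at 1647 and 217 CPM, against 3482 to 5151 and 264 to 360.3 CPM in the other 4-day hearts, and their part in its values was not tested. Without saline B the numbers of genes called were 31, 26 and 29 at 4, 8 and 11 days, and the shares of all genes in those fits are not given here. The carnitine shuttle stood at -0.747, -0.534, -0.751 and -0.758 in the 4-day hearts and -0.536, -0.592, -0.666 and -0.42 in the 11-day hearts, and the mitochondrial chain shortening step at -0.84, -0.443, -0.846 and -0.648 in the 4-day hearts and -0.317, -0.373, -0.45 and -0.367 in the 11-day hearts. The peroxisomal genes stayed between -0.306 and -0.129 in all isoproterenol hearts, and 3 of them, 4-day B, 8-day B and 11-day D, were above saline B (-0.217).

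**Figure D4:**
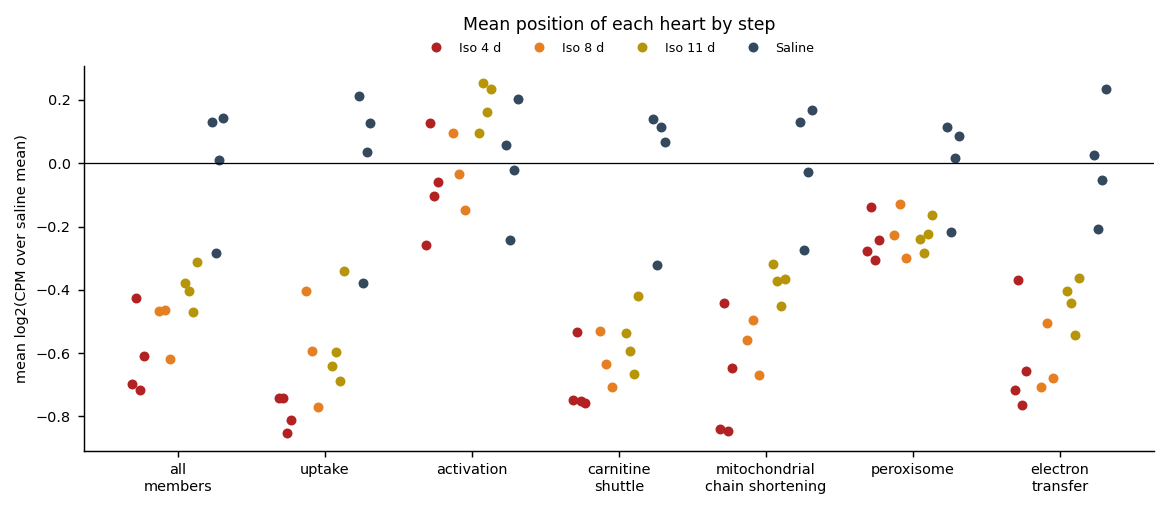
Mean over the genes of each step of log2 (CPM over the saline mean) (y axis), 1 point per heart, for 4, 8 and 11 days of isoproterenol and saline, from left to right within a step. Over all members the isoproterenol hearts run from -0.716 to -0.313 and the saline hearts from -0.283 (saline B) to 0.143; in the activation step the groups overlap.

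Whether the treated groups differ from each other was tested directly. Between 8 and 4 days 0 of the 34 genes passed edgeR's test, where it called 0.0596% of all genes higher and 0.19% lower after adjustment. Ehhadh alone had an unadjusted p under 0.05 (0.0396). DESeq2 also called 0 between 8 and 4 days, where it called 0.592% of all genes higher and 1.44% lower. Between 11 and 8 days 0 passed edgeR's test, where it called 0.0596% of all genes higher and 0.0782% lower after adjustment. Before adjustment 13 of the 34 had a p under 0.05. The share of all genes under that looser threshold was not counted, so that no excess can be read from the 13. DESeq2 called 4 of the 34 higher at 11 than at 8 days, where it called 0.7% of all genes higher and 0.462% lower. In that comparison 30 of the 34 log2 fold changes were positive, with a median of 0.163, against 0.0042 over all tested genes. The share of all genes with a positive value was not counted, so that no excess can be read from the 30. Every 11-day heart lay above every 8-day heart for 12 genes (6.44% of all genes) and below for 1, Ehhadh (5.11%). Between 11 and 4 days 12 genes were higher at 11 days and none lower, where 3.75% of all genes were higher and 6.55% lower, and every 11-day heart lay above every 4-day heart for 12 genes (7.21% of all genes), among them Hadha and Acaa1a, which were not called.

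Of the 12 genes higher at 11 than at 4 days, 8 belong to mitochondrial chain shortening (Acadvl, Acadm, Hadhb, Hadh, Acaa2, Eci1, Decr1 and Ech1), 2 to uptake (Lpl and Slc27a1), 1 to the carnitine shuttle (Mlycd) and 1 to activation (Acsl3). Acadm had the largest difference, at 448 ± 15.3 CPM at 11 days and 306 ± 51.6 CPM at 4 days (SD, n = 4 each), a log2 fold change of 0.54 (SE 0.10, adjusted p = 0.00486 from edgeR). Ech1 differed by 0.46 (SE 0.10, adjusted p = 0.0108) and Mlycd by 0.42 (SE 0.09, adjusted p = 0.00852). The other 9 ran from 0.29 for Slc27a1 to 0.40 for Hadhb, with adjusted p from 0.0219 (Hadhb) to 0.0492 (Decr1). Of the 12, 11 were lower at 4 days than in saline, and 6 of these (Mlycd, Hadhb, Hadh, Acaa2, Decr1 and Ech1) were still lower than saline at 11 days, while the other 5 (Lpl, Slc27a1, Acadvl, Acadm and Eci1) did not pass the test at 11 days. Cpt1a was among the 5 genes with a negative value, at -0.21 (SE 0.09, adjusted p = 0.205). Acadm, Ech1 and Mlycd kept the call whichever 1 library was left out. The count of 12 became 3 without 4-day A, 3 without 4-day C, 6 without 4-day D, 21 without 4-day B, 5 without 11-day A, 4 without 11-day B and 4 without 11-day D, and it was 4 when scaled by library size alone, where 1.18% of all genes were higher and 8.93% lower. For the fits without 1 library the shares of all genes are not given here. Over all 4 groups 31 of the 34 genes passed edgeR's F test (13% of all genes did), all but Acaa1a, Ehhadh and Hsd17b4.

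**Figure D5:**
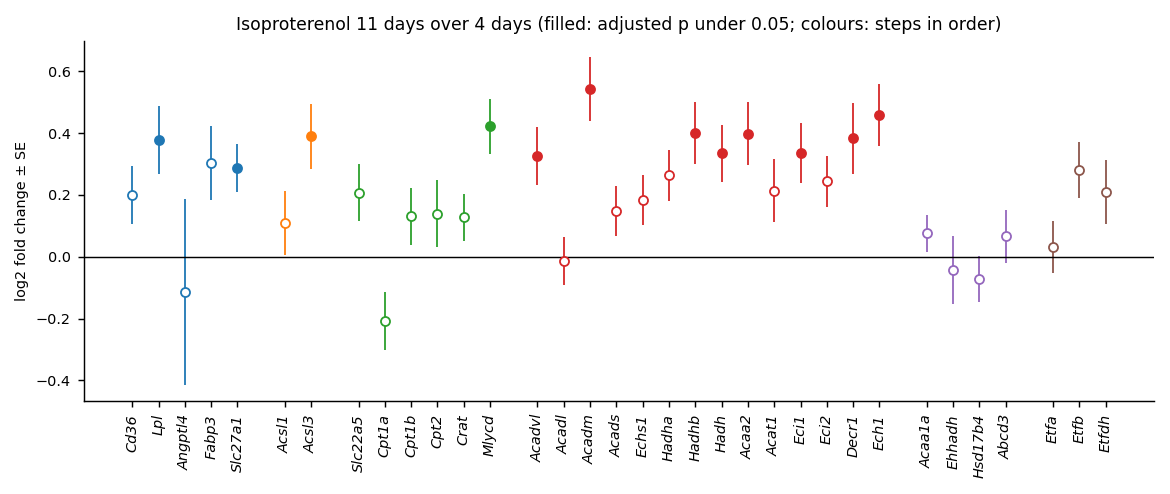
Log2 fold change of 11 days over 4 days of isoproterenol (y axis) for each of the 34 genes in the order of the steps; bars are 1 standard error and filled points have an adjusted p under 0.05 from edgeR. Filled points number 12, all above 0, with Acadm at 0.54 the highest, and 29 of the 34 points are above 0. The share of all genes above 0 was not counted.

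Ratios of 2 genes within a library do not depend on how libraries are scaled. The log2 ratio of Acsl3 to Acsl1 was -6.468 ± 0.148, -6.596 ± 0.07 and -6.205 ± 0.226 after 4, 8 and 11 days, against -7.4 ± 0.245 after saline (SD, n = 4, 3, 4 and 4). It was higher by 0.932, 0.804 and 1.195, with p = 0.0286, 0.0571 and 0.0286 from the exact two-sided permutation test, the smallest that 4 against 4 and 3 against 4 hearts can give, and 0.171 each after adjustment over 15 tests. The log2 ratio of Cpt1a to Cpt1b was -2.879 ± 0.265, -3.037 ± 0.12 and -3.214 ± 0.226, against -2.852 ± 0.118, with differences of -0.027, -0.185 and -0.361 (exact p = 0.857, 0.114 and 0.0571, adjusted 0.857, 0.19 and 0.171). The ratios of Angptl4 to Lpl and of Etfa to Etfb differed by -0.684, -0.382 and -1.189 and by 0.165, 0.228 and -0.082, with adjusted p of 0.171 or more from the exact permutation test. No ratio passed after adjustment. A p of 0.0286 from this permutation test could pass only if most of the 15 tests reached it. The adjusted values thus cannot decide whether a single ratio changed. In FPKM the 8-day difference of Angptl4 to Lpl and the 11-day difference of Hadha to Hadhb turned to 0.059 and 0.03.

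The share of a gene's counts on its most abundant transcript had ranges that overlapped the saline range for all 34 genes at 4 days, for 33 at 8 days (all but Ech1, above) and for 31 at 11 days (all but Cpt1a, Acadm and Hsd17b4, below). Cpt1a-201 took 92.7 to 95.3%, 92.4 to 95.4% and 90.1 to 92.6% of the counts of Cpt1a after 4, 8 and 11 days, against 95.2 to 97.5% after saline. Ech1-201 took 94.3 to 97.7%, 95.9 to 98.9% and 94.3 to 98.8% of the counts of Ech1, against 88.7 to 94.9% after saline. These shares are RSEM estimates and were not tested. How many of all genes have such ranges apart from saline was not counted, so that no excess among the 34 can be read from these numbers.

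Promoter windows of 300 bases, from 250 before to 50 after a RefSeq start (GRCm38.p6), were matched for 26 of the 34 genes. The exact PPAR element, AGGTCA repeated with 1 base between, was in 0 of the 26 on either strand, where 0.0396% of all 32851 promoters hold it, and the ERR element TCAAGGTCA was in 0 of the 26 (0.423% of all promoters). With at most 2 of the 12 letters of the PPAR element changed, a search added after the exact one found no match, Cd36, Echs1 and Etfa held a match, where 3.86% of all promoters do. The windows of Etfa, which was lower at all 3 times, and of Echs1, which was not called at any, are shown for comparison with the match in capitals. That of Etfa (chr9:55512194-55512493, minus strand) reads the element on its opposite strand, from 77 bases before the start, and that of Echs1 (chr7:140116372-140116671, minus strand) reads it on the strand shown, from 83 bases before. The window of Cd36 lies 52851 bases from the start of its most abundant transcript.
Etfa: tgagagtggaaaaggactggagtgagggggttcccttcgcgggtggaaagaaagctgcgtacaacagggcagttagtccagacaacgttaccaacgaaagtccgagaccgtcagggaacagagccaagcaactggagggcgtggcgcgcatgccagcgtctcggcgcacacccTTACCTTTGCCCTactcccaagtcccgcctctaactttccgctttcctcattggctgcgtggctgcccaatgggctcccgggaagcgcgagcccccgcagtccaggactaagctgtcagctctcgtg
Echs1: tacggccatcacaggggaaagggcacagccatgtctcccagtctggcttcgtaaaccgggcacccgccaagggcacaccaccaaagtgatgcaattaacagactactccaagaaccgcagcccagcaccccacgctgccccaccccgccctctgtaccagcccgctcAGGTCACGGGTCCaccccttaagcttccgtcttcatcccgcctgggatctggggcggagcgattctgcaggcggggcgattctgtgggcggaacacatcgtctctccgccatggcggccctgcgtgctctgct

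Of 36 other genes of the same pathway, 35 were tested, and 7 (20%) were lower and 2 (5.71%) higher than in saline after 4 days, where 3.4% and 6.05% of all genes were. After 8 days 2 (5.71%) were lower, where 1.2% of all genes were, and after 11 days 2 (5.71%), where 1.95% were. Scaled by library size alone, 3 were lower and 6 higher after 4 days, where 1.09% of all genes were lower and 9.43% higher. The genes higher after 4 days were Slc27a4, a fatty acid transport protein, and Acox2, a peroxisomal oxidase, with log2 fold changes of 0.35 (SE 0.09, adjusted p = 0.0293 from edgeR) and 1.21 (SE 0.31, adjusted p = 0.025). Neither was called without saline A, saline C, saline D, 4-day A or 4-day C, with effective lengths or in FPKM. After 4 days Gpihbp1, which holds lipoprotein lipase at the capillary wall, had a log2 fold change of -0.73 (SE 0.09, adjusted p = 0.000396 from edgeR), Etfbkmt, a methyltransferase of Etfb, -0.68 (SE 0.13, adjusted p = 0.00529), Acad12, a dehydrogenase of the same family as Acadm, -0.57 (SE 0.12, adjusted p = 0.00817) and Slc25a20, the carnitine and acylcarnitine carrier of the inner membrane, -0.61 (SE 0.13, adjusted p = 0.00914). After 8 days Dbi, the acyl-CoA-binding protein, had -0.80 (SE 0.15, adjusted p = 0.0142) and Slc25a20 -0.55 (SE 0.11, adjusted p = 0.0226). After 11 days Gpihbp1 had -0.51 (SE 0.11, adjusted p = 0.0171) and Slc25a17, a carrier of the peroxisomal membrane, -0.49 (SE 0.11, adjusted p = 0.0273). The median of the 35 genes was -0.111 at 4 days, -0.002 at 8 days and -0.013 at 11 days. The count at 4 days became 4 without saline A, saline D, 4-day A or 4-day C and 5 without 4-day D, and those at 8 and 11 days became 0 without 8-day C and without 11-day C. Shares of all genes in these fits are not given here.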

How the data were processed

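RNA-seq of ventricular RNA was read from 15 libraries, made with a TruSeq total RNA kit. Per the labels and the methods of the study, trimming by the authors used cutadapt 4.1, alignment to GRCm38.p6 used HISAT2 2.2.1, and RSEM 1.3.3 gave the counts. The strand setting is not given in the sources used here. The expected counts, FPKM values and effective lengths per gene and transcript were used as deposited by the authors. Expected counts were rounded, genes with a sum of at least 10 were kept (26862), and each isoproterenol group was fitted with saline by edgeR's quasi-likelihood test (edgeR 4.0.16, R 4.3.3, TMM) with Benjamini-Hochberg adjustment at 0.05. The groups of different times were compared in the same way, each pair in its own fit, and 1 fit of all groups gave the F test. Every adjusted p in the text without another name is from edgeR. Log2 ratios of 2 genes were compared by exact permutation tests (SciPy 1.17.1).

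The members and lists were chosen with earlier results of these data known. Genes given heart by heart were the 2 of each step with the largest mean size of change and every gene that was higher in any comparison, other genes are given by range, and of other pathway genes up to 4 per comparison with the smallest p were named. Nothing in the labels says whether hearts were processed in separate batches, and p-values measure only the spread between these samples. The depth was 25404162 to 117777005 counts per library, and the smallest counts bear on Angptl4 (10 to 146 per library) and Acsl3 (80 to 477). The test was run first on simulated counts, where 64% of genes lowered by 1 on the log2 scale were recovered at 4 days (26492 genes). Alternatives were other scalings (library size, RLE, cardiomyocyte markers, without mitochondrial and CT010467.1 and Lars2 transcripts), DESeq2 1.42.0, limma 3.58.1 with voom weights or on log2(FPKM + 1) of genes with a mean FPKM of at least 0.1, other filters, effective lengths as offsets, robust dispersions, 1 fit of all samples, the replicate letter as a block and leaving out each library. Sequences are from RefSeq and gene positions from GENCODE, both on GRCm38.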

Additional observations from a re-analysis of the deposited data

Results flagged for a closer look

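Of 102 groups of 4 hearts examined for 1 value far from the rest, 3 held one, where chance gives about 1 in 20. Slc27a1, the fatty acid transport protein, was 49.9 CPM in saline B, with 76.0 to 81.3 CPM in the other saline hearts, and 42.8 CPM in 4-day D, with 45.9 to 46.5 CPM in the other 4-day hearts. Echs1 was 110 CPM in 11-day A, with 106.4 to 106.9 CPM in the other 11-day hearts.

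For 12 genes the level after 11 days differed from that after 4 days in a direct test (adjusted p under 0.05 from edgeR), so that their change from saline differed between these times. The log2 fold changes of 11 over 4 days were 0.38 for Lpl, 0.29 for Slc27a1, 0.39 for Acsl3, 0.42 for Mlycd, 0.33 for Acadvl, 0.54 for Acadm, 0.40 for Hadhb, 0.33 for Hadh, 0.40 for Acaa2, 0.33 for Eci1, 0.38 for Decr1 and 0.46 for Ech1. Mlycd, Acadm and Ech1 kept the call whichever 1 library was left out.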

How the results depend on the processing

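With scaling by library size alone 19, 10 and 11 genes were called at 4, 8 and 11 days and 4 between 11 and 4 days, where 2533, 167 and 415 and 317 of all genes were higher and 293, 280 and 220 and 2400 lower, and the median of all tested genes moved to 0.209, -0.103 and 0.0598. In FPKM with limma 12, 0 and 1 were called, in a fit that called 995 genes higher and 139 lower, 3 and 7, and 93 and 39 of all genes. DESeq2 called 30, 27 and 25, where it called 6.79%, 1.71% and 2.81% of all genes higher and 4.76%, 2.01% and 3.28% lower, and 4 between 11 and 8 days (0.7% and 0.462%). Among single genes, none of them called, Acaa1a at 4 days turned to 0.18 by library size, 0.01 by cardiomyocyte markers and 0.13 in FPKM, Hsd17b4 at 4 days to 0.08 by library size and 0.08 in FPKM, Acadm at 11 days to 0.06 in FPKM, Acsl3 at 8 days to -0.09 in FPKM and -0.06 with effective lengths, and Ehhadh at 8 days to 0.04 by cardiomyocyte markers. In FPKM the ratio of Angptl4 to Lpl at 8 days turned to 0.059 and that of Hadha to Hadhb at 11 days to 0.03. The same call held in every alternative for 12 of 29 genes at 4 days, 0 of 19 at 8 days, 1 of 22 at 11 days (Ech1) and 2 of 12 between 11 and 4 days (Acadm and Ech1).

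Leaving out 1 library gave 24 to 31 genes at 4 days, 7 to 26 at 8 days (7 without 8-day C, 26 without saline B), 7 to 29 at 11 days (7 without 11-day B, 29 without saline B), 3 to 21 between 11 and 4 days, 0 to 1 between 11 and 8 days, 0 throughout between 8 and 4 days and 28 to 32 in the F test. The F test then called 2198 to 3890 of all 26862 genes. For the fits of 2 groups the shares of all genes without 1 library are not given here. Acaa1a at 4 days ran from -0.05 to 0.01, Ehhadh at 8 days from -0.17 to 0.06 and the ratio of Cpt1a to Cpt1b at 4 days from -0.125 to 0.074. The other pathway genes called numbered 4 to 11, 0 to 2 and 0 to 4 without 1 library and 1 to 12, 0 to 3 and 0 to 5 over the other alternatives.

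With the replicate letter as a block 29, 17 and 23 genes were called at 4, 8 and 11 days, and Ehhadh at 8 days was 0.05. In these fits 5.03%, 1.23% and 1.89% of all genes were higher and 2.71%, 1.35% and 2.24% lower. Between 11 and 4 days 12 were called (3.44% of all genes higher, 6.32% lower). Between 8 and 4 days 0 were called (0.272% and 1.31%), and between 11 and 8 days 1 (0.305% and 0.477%). Taken as deviations from the group means over all genes, same-letter libraries had correlations of -0.092 to 0.0725 and different-letter libraries of -0.0913 to 0.1414. These values cannot tell whether hearts of 1 letter were handled together.

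The causes of these changes were not tested. The 8-day group has 3 hearts and the lowest median depth, and 8-day A holds the excess of CT010467.1 and Lars2. Counts of Angptl4 and Acsl3 are low, RSEM splits reads between transcripts by estimate, and the share of each cell type in the tissue was not measured.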
